A study of Mus musculus with 21 samples.

Results

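Expression of the p53 and Rb pathway genes that control entry into S phase was described in mouse embryonic fibroblasts (MEFs) by RNA sequencing. The 10 genes were *Trp53*, *Rb1*, the INK4 genes *Cdkn2a*, *Cdkn2b*, *Cdkn2c* and *Cdkn2d*, the KIP gene *Cdkn1b*, and the cyclin genes *Ccnd1*, *Ccnd2* and *Ccne1*. They were taken by symbol from a table of 24454 genes, all 10 were found in it, and all 10 were among the 13719 genes that passed the filter on low counts. There were 21 libraries, 3 in each of 7 groups. *Rtel1* F/F MEFs, which carry a floxed *Rtel1* allele, were infected with adenovirus expressing GFP (+GFP) or Cre with GFP (+Cre) and collected 96 h later. Another group of these cells was infected with the GFP virus and exposed to 10 µM TMPyP4, a porphyrin that binds G-quadruplex DNA, for the last 48 h (+TMPyP4). The RTEL1 C1252A/C1255A line, labelled Rtel1f/f MEFs as well, carries a transduced mutant *Rtel1* from a pBabe retroviral vector. Whether it was made from the same cells as the *Rtel1* F/F line used here is not stated. The mutant line was infected with either virus, as were *Terf1* F/F MEFs (labelled Trf1f/f), in which Cre removes the telomere protein TRF1. The time of collection of the *Terf1* F/F cells, whether the lines were immortalised, and whether each was derived from a single embryo are not given in the sources used here. Libraries were numbered 1 to 3 as biological replicates, which were not said to be separate embryos or cultures, so the p-values measure only the spread between these libraries.

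These genes form the switch between growth and arrest in G1. Cyclin D with CDK4 or CDK6, and then cyclin E with CDK2, phosphorylate the Rb protein, which releases E2F factors and lets S phase genes be transcribed. INK4 proteins block CDK4 and CDK6, p27Kip1 blocks cyclin E with CDK2, and p53 acts on the same step by inducing *Cdkn1a* (p21). In cultured MEFs the products of *Cdkn2a*, p16Ink4a and p19Arf, accumulate with passage, and loss of *Trp53* or *Cdkn2a* is the usual way in which such cells become immortal.

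The totals per library ran from 32069888 to 51938593 counts (median 43013208), and the members had between 406 and 22754 counts in each library. Levels are given as CPM (counts scaled to a common library total with TMM factors) within a gene and as TPM (RSEM's estimate per transcript length) between genes. Differences are log2 fold changes with their standard errors (SE). Their p-values come from the quasi-likelihood test of edgeR, adjusted by Benjamini-Hochberg over the 13719 genes and written as edgeR adjusted p, and 0.01 was the threshold for a call. *Rtel1* stood at 61.8 ± 3.83 CPM (SD, n = 3) in *Rtel1* F/F +GFP and 29.5 ± 2.56 CPM in +Cre cells, and at 332 ± 4.80 and 265 ± 16.3 CPM in the +GFP and +Cre mutant line. *Terf1* fell from 29.3 ± 1.21 to 0.0608 ± 0.0434 CPM with Cre in its line. Of 10 fibroblast markers 9 exceeded 1 TPM in every library, the exception being *Thy1* (0.02 to 340 TPM), and the summed levels of the other marker lists were 0.96 to 3.87 TPM for 6 epithelial, 0.10 to 1.71 for 4 endothelial, 1.64 to 12.06 for 5 leukocyte and 0.16 to 0.51 for 4 skeletal muscle genes. *Cd68* (1.64 to 11.63 TPM) made up most of the leukocyte sum, which was highest in the *Terf1* F/F line (7.93 to 12.06 TPM), while *Ptprc* reached at most 0.03 TPM. The 4 neural genes summed to 12.95 to 40.39 TPM, through *Tubb3* (6.23 to 26.79) and *Sox2* (2.78 to 20.24). The 10 fibroblast markers summed to 5917 to 6423 TPM in *Rtel1* F/F +GFP libraries, 2593 to 3362 in +Cre and 3292 to 4488 in +TMPyP4. In the mutant line they summed to 2456 to 4083 TPM and in the *Terf1* F/F line to 7611 to 10463 TPM, and the part of these differences in the results was not tested. Fewer cells in one state and less RNA per cell cannot be told apart in bulk libraries.

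The *Cdkn2a* count joins 2 transcripts that start at separate promoters and share later exons, p19Arf from the distal and p16Ink4a from the proximal start, and a count per gene cannot tell them apart. Their upstream sequences are shown for that reason, and those of *Cdkn1b* and *Ccne1* because the results below turn on these genes. Each is the 250 bases before the start of transcription, 5′ to 3′ on the strand of the gene, from RefSeq (GRCm38.p6), with capitals where a motif was found on either strand.
*Cdkn2a* distal start (p19Arf), chr4:89294620-89294869, minus strand: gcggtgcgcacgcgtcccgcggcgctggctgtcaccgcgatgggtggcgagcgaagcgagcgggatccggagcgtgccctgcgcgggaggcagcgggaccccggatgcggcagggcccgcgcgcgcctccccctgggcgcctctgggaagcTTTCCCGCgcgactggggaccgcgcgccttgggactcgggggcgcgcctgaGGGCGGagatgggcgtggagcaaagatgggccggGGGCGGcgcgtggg
*Cdkn2a* proximal start (p16Ink4a), chr4:89282193-89282442, minus strand: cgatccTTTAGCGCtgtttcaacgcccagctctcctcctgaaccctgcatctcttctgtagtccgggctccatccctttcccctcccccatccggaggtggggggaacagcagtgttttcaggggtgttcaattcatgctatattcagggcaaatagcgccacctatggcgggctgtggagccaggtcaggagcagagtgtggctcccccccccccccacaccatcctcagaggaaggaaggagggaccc
*Cdkn1b*, chr6:134920151-134920400, plus strand: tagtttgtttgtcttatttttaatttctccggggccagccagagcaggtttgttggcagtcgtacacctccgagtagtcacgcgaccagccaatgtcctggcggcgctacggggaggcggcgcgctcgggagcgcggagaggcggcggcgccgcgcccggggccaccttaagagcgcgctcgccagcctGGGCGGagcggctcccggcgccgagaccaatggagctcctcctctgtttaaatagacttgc
*Ccne1*, chr7:38107491-38107740, minus strand: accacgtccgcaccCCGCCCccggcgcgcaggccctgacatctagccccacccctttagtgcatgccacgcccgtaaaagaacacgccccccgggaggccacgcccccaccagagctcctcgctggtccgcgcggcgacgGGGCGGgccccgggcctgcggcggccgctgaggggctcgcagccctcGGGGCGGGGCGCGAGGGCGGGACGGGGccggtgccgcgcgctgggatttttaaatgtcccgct

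The motifs searched were TTTNNCGC (a loose form of the E2F element), GGGCGG (the GC box bound by SP1) and 4 runs of at least 3 G separated by 1 to 7 bases (a pattern that can fold into a G-quadruplex, the structure bound by TMPyP4). A RefSeq window was found for 7 of the 10 members, 9 windows in all. Both *Cdkn2a* starts held TTTNNCGC, and none of the other 7 windows did; over all 32851 windows 4.28% held it. GGGCGG was found in 5 of the 9 windows against 32.7% of all windows, with 4 matches before *Ccne1* and 1 before *Cdkn1b*. The pattern of 4 G runs was found before *Ccne1*, *Cdkn2c* and *Cdkn2d*, and in 16.7% of all windows. GGGCGG overlaps the G runs in each of these 3 windows, so the 2 matches are not separate. A match describes letters only and was not tested for binding.

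In *Rtel1* F/F cells the 3 cyclin genes rose and 4 of the 5 CDK inhibitor genes fell after *Rtel1* loss, while *Trp53*, *Rb1* and *Cdkn2a* were not called. Of the 10 members 3 were called higher (*Ccnd1*, *Ccnd2*, *Ccne1*) and 4 lower (*Cdkn1b*, *Cdkn2c*, *Cdkn2d*, *Cdkn2b*), against 22% of all tested genes called higher and 21% called lower. TMPyP4 gave 4 higher (*Ccnd1*, *Ccnd2*, *Ccne1*, *Rb1*) and 3 lower (*Cdkn1b*, *Cdkn2c*, *Cdkn2d*), against 16.6% and 13.4%. Without *Rtel1* F/F +GFP replicate 2 the TMPyP4 count was 4 in all. In the RTEL1 C1252A/C1255A line Cre gave 1 higher, *Ccne1*, and 0 lower, against 0.525% and 0.569%. Loss of *Terf1* gave 1 higher, *Ccne1*, and 0 lower, against 2.65% and 0.765%. In each of these 2 comparisons 1 member was lower at an unadjusted edgeR p under 0.05 and 0 were called lower by DESeq2. DESeq2 called 203 and 202 of all 13928 genes lower, and the share of all genes at that unadjusted p was not computed. In the mutant line 1 member was higher at that unadjusted p and 1 by DESeq2, and with *Terf1* loss 3 and 2. DESeq2 called 134 and 437 of all 13928 genes higher in these comparisons. The mutant +GFP and +Cre libraries pair by number, which these tests ignored, and a paired fit of that line alone was not run. In every same-numbered pair *Ccnd1*, *Ccnd2* and *Ccne1* were higher with Cre and *Trp53*, *Rb1*, *Cdkn1b*, *Cdkn2a*, *Cdkn2b* and *Cdkn2c* lower. *Cdkn2d* went both ways.

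**Figure D1:**
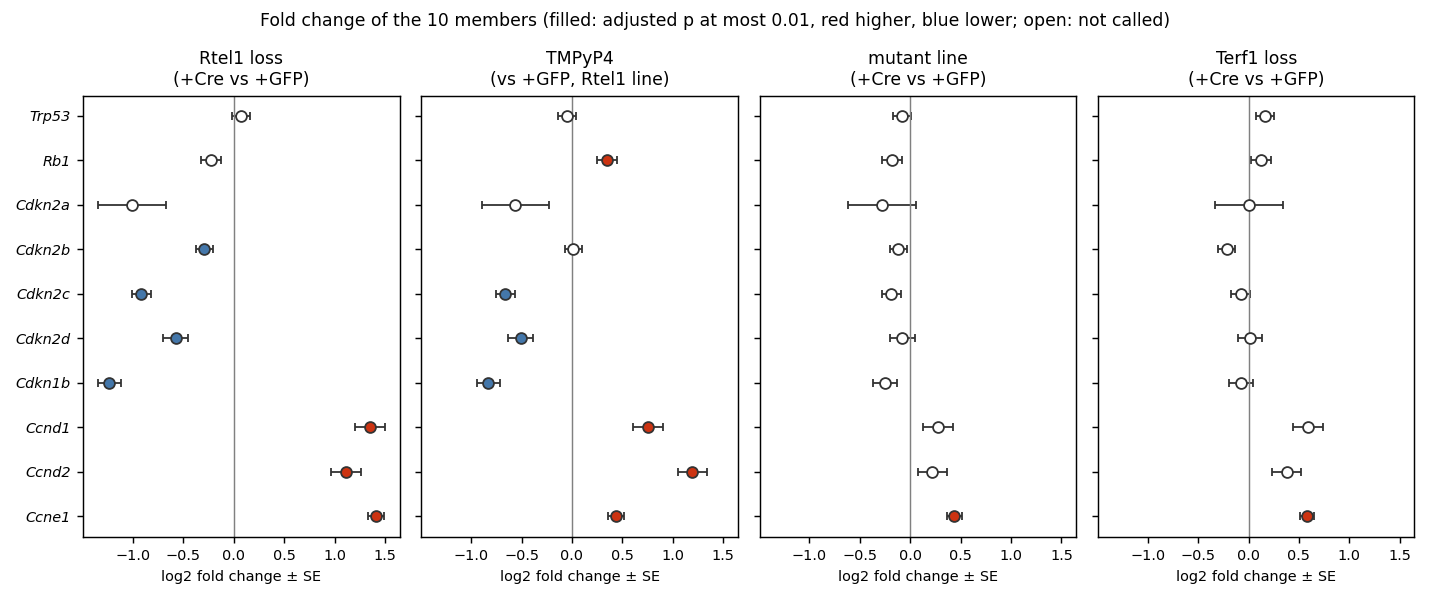
Log2 fold change ± SE of the 10 members (vertical axis) in the 4 treatment comparisons (panels), 3 libraries against 3 in each; filled points passed an adjusted p of 0.01 (red higher, blue lower) and open points did not. In the first panel the 3 cyclin genes lie at 1.11 to 1.41 and *Cdkn1b* at -1.23, and in the last 2 panels *Ccne1* is the filled point.

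The *Rtel1* F/F +GFP libraries are the control both for *Rtel1* loss and for TMPyP4, and members also differed between them and the +GFP libraries of the other lines. Between the +GFP libraries of the RTEL1 C1252A/C1255A line and those of the *Rtel1* F/F line, 3 members were called higher (*Ccnd1*, *Ccnd2*, *Ccne1*) and 3 lower (*Cdkn1b*, *Cdkn2b*, *Cdkn2c*), against 22.6% and 22.1% of all tested genes. The *Cdkn2b* call held in 8 of 13 other fits. The same 3 control libraries serve all of these comparisons, so they are not independent of each other. The *Terf1* F/F line differed from the *Rtel1* F/F line at baseline in 3 members higher (*Ccne1*, *Ccnd2*, *Rb1*) and 1 lower (*Trp53*), against 30.3% and 24.5%. Against the mutant line at baseline, which does not use those controls, it had 7 members higher (*Cdkn2b*, *Cdkn2c*, *Cdkn2d*, *Cdkn1b*, *Rb1*, *Ccnd2*, *Ccne1*) and 2 lower (*Trp53*, *Ccnd1*), against 31.9% and 26.6%. Of these calls that of *Cdkn2c* held in 6 of 13 other fits and that of *Cdkn2d* in 9 of 13. Set directly against TMPyP4, *Rtel1* loss left 2 members higher (*Ccne1*, *Ccnd1*) and 1 lower (*Rb1*), against 6.13% and 9.09%.

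**Figure D2:**
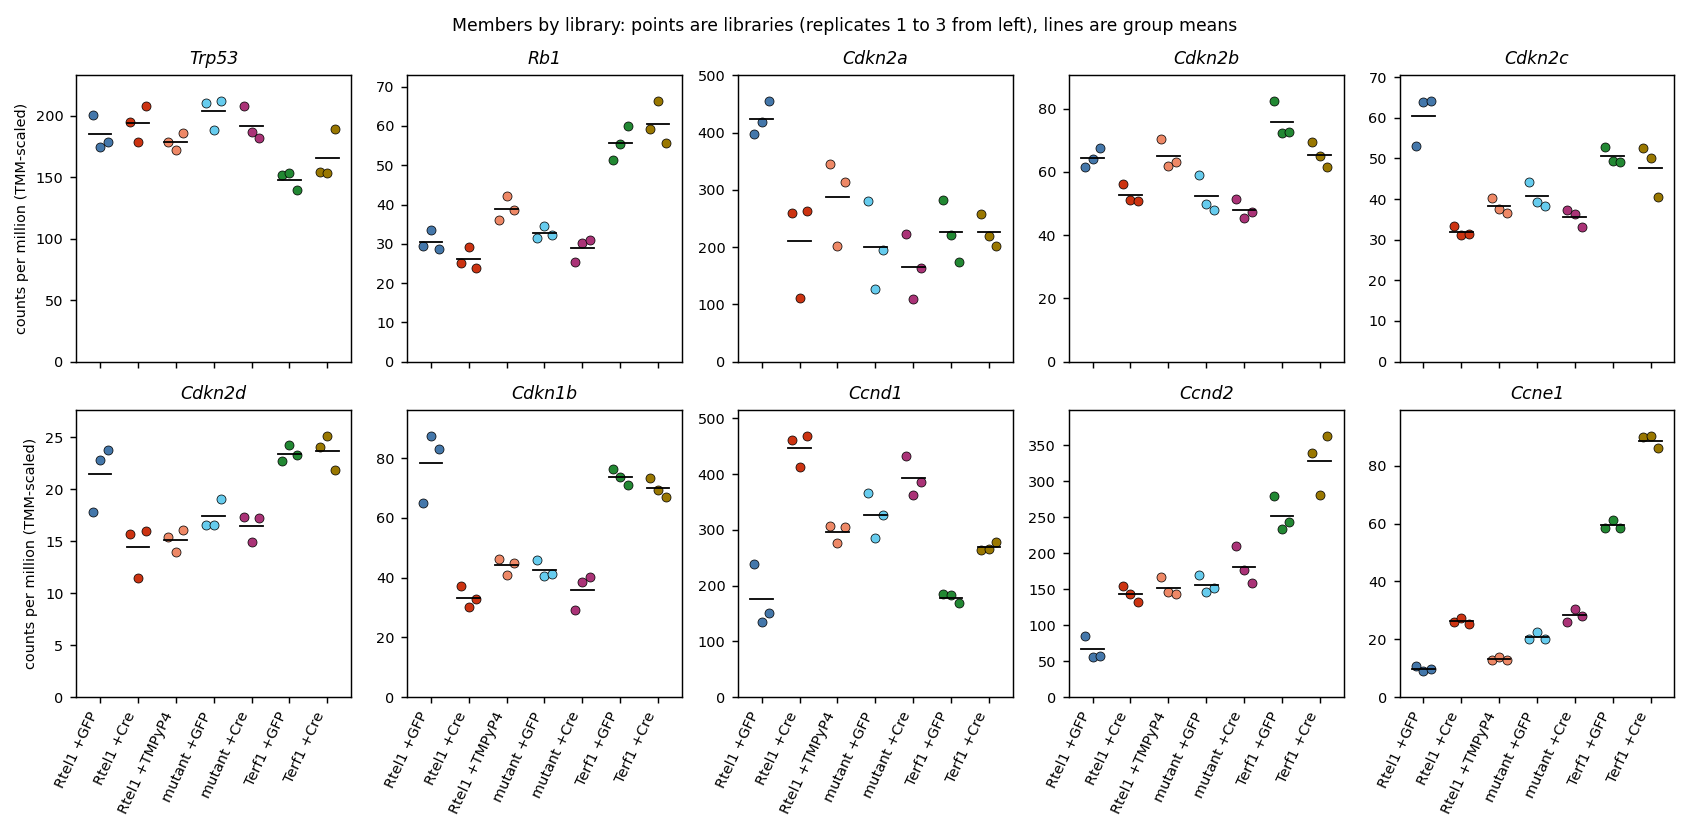
CPM (vertical axes, from 0) of each member in the 21 libraries by group (horizontal axis); points are libraries in the order of their replicate numbers and lines are means of 3. The group means of *Ccne1* run from 9.82 CPM in *Rtel1* F/F +GFP to 88.6 CPM in *Terf1* F/F +Cre, and *Cdkn2a* has its most spread groups in the RTEL1 C1252A/C1255A line, *Rtel1* F/F +Cre and +TMPyP4.

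*Trp53* (chr11:69580348-69591873), which encodes p53, was the steadiest member. It had 201, 175 and 179 CPM in *Rtel1* F/F +GFP, 195, 179 and 208 in +Cre and 179, 172 and 186 in +TMPyP4 libraries. The groups overlapped, with differences of 0.07 ± 0.088 (edgeR adjusted p = 0.513) after *Rtel1* loss and -0.05 ± 0.088 (edgeR adjusted p = 0.695) with TMPyP4. In the mutant line the values were 210, 188 and 212 CPM in +GFP and 208, 186 and 182 CPM in +Cre libraries, again overlapping, though lower with Cre in each same-numbered pair. *Terf1* F/F cells had the lowest levels, 152, 153 and 139 CPM in +GFP and 154, 153 and 189 CPM in +Cre libraries. All 3 of the +Cre libraries lay above the +GFP ones, the closest pair by 153.5 against 153.1 CPM, and the groups overlapped on the TPM scale. The difference of 0.16 ± 0.088 was not called (edgeR adjusted p = 0.380). At baseline this line was lower than the *Rtel1* F/F line by -0.32 ± 0.088 (edgeR adjusted p = 0.00388) and lower than the mutant line by -0.46 ± 0.088 (edgeR adjusted p = 0.000153). In the order of group means, from 203 CPM in the mutant +GFP cells to 148 CPM in *Terf1* F/F +GFP, only the last 2 neighbours, *Terf1* F/F +Cre and +GFP, did not overlap. *Wrap53* lies on the opposite strand just upstream, and counting was strand-specific.

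*Rb1* (chr14:73192858-73325951), the pocket protein gene at the centre of the G1 switch, separated the lines more than the treatments. *Terf1* F/F cells had 51.2, 55.4 and 60.0 CPM in +GFP and 59.3, 66.4 and 55.6 in +Cre libraries, overlapping each other and above every library of the other lines. *Rtel1* F/F cells had 29.5, 33.6 and 28.6 CPM in +GFP, 25.1, 29.3 and 23.9 in +Cre and 36.0, 42.3 and 38.5 in +TMPyP4 libraries. The TMPyP4 libraries were the highest of these and did not overlap either of the other 2 groups. Mutant line libraries had 31.4, 34.6 and 32.2 CPM in +GFP and 25.5, 30.3 and 30.9 CPM in +Cre, which did not overlap, with a difference of -0.18 ± 0.10 (edgeR adjusted p = 0.470) that was not called. The *Terf1* F/F line exceeded the *Rtel1* F/F line by 0.86 ± 0.10 (edgeR adjusted p = 5.90e-07) and the mutant line by 0.76 ± 0.10 (edgeR adjusted p = 2.32e-06). TMPyP4 raised *Rb1* by 0.35 ± 0.10 (edgeR adjusted p = 0.00927), a call that held in 2 of 13 other fits (with the replicate block and without +TMPyP4 replicate 1), with adjusted p up to 0.27. After *Rtel1* loss the difference was -0.23 ± 0.10 (edgeR adjusted p = 0.0659), and *Rtel1* loss was lower than TMPyP4 by -0.58 ± 0.10 (edgeR adjusted p = 0.000377). *Lpar6* lies inside an intron of *Rb1* and was itself higher in the *Terf1* F/F line, by 1.28 ± 0.14 on the log2 scale; any reads shared between the pair were not examined.

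*Cdkn2a* (chr4:89274473-89294619) was the most abundant member per length, at 240 to 1180 TPM, and the most variable among replicates. *Rtel1* F/F +GFP libraries had 398, 419 and 456 CPM, above all other libraries. The +Cre libraries had 259, 112 and 263 CPM and the +TMPyP4 libraries 346, 202 and 315 CPM, below the controls without overlap. The log2 differences were -1.01 ± 0.34 after *Rtel1* loss and -0.56 ± 0.34 with TMPyP4, and neither was called (edgeR adjusted p = 0.0184 and 0.190). For *Rtel1* loss 3 of 13 other fits called it, DESeq2 among them (adjusted p = 0.00245). Mutant line libraries had 280, 127 and 194 CPM in +GFP and 223, 109 and 164 CPM in +Cre libraries, lower with Cre in each same-numbered pair. Replicate 2 was thus the lowest library of *Rtel1* F/F +Cre, +TMPyP4 and both mutant groups, but not of *Rtel1* F/F +GFP. In *Terf1* F/F cells the values were 283, 221 and 174 CPM in +GFP and 258, 219 and 203 CPM in +Cre libraries, with a difference of 0.01 ± 0.33 (edgeR adjusted p = 0.999). At baseline the mutant and *Terf1* F/F lines stood at -1.08 ± 0.34 and -0.91 ± 0.34 against the *Rtel1* F/F line (edgeR adjusted p = 0.0120 and 0.0258), which DESeq2 called (adjusted p = 0.00114 and 0.00559). The main edgeR test called no *Cdkn2a* difference in the 10 comparisons, whereas DESeq2 called *Rtel1* loss and these 2 baseline differences. Its SE was the largest of the members throughout.

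*Cdkn2b* (chr4:89306289-89311032), its neighbour, encodes p15Ink4b, an inhibitor of CDK4 and CDK6 that TGF-beta induces. It moved less, with 61.6, 63.9 and 67.6 CPM in *Rtel1* F/F +GFP, 56.1, 51.0 and 50.8 in +Cre and 70.3, 61.7 and 63.0 in +TMPyP4 libraries. The +Cre libraries were lower than both other groups without overlap, while the +TMPyP4 and +GFP libraries overlapped. *Rtel1* loss lowered it by -0.29 ± 0.085 (edgeR adjusted p = 0.00727), a call kept in 7 of 13 other fits and lost when replicate 2 or 3 of either group was left out, and TMPyP4 gave 0.01 ± 0.084 (edgeR adjusted p = 0.911). The difference between the 2 treatments was -0.31 ± 0.085, not called (edgeR adjusted p = 0.0127) but called with the replicate number as a block (edgeR adjusted p = 0.000999). The numbers do pair the libraries of these 2 groups. The block was fitted over all 7 groups, however, and not all of them pair by number. A paired fit of these groups alone was not run. *Terf1* F/F +GFP libraries were the highest, at 82.5, 72.4 and 72.6 CPM, above 69.5, 65.1 and 61.4 CPM in +Cre without overlap, a difference of -0.21 ± 0.084 that was not called (edgeR adjusted p = 0.169). Mutant line libraries had 59.1, 49.7 and 47.9 CPM in +GFP and 51.5, 45.5 and 47.3 CPM in +Cre, and overlapped each other and the *Rtel1* F/F +Cre libraries. Within each same-numbered pair of the mutant line the +Cre library was the lower.

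*Cdkn2c* (chr4:109660876-109666756) and *Cdkn2d* (chr9:21288459-21291421) encode p18Ink4c and p19Ink4d, inhibitors of the same kinases. *Cdkn2c* had 53.1, 63.8 and 64.2 CPM in *Rtel1* F/F +GFP, 33.4, 31.1 and 31.3 in +Cre and 40.3, 37.6 and 36.7 in +TMPyP4 libraries. The 3 groups did not overlap, with +Cre lowest. It fell by -0.92 ± 0.095 after *Rtel1* loss (edgeR adjusted p = 2.79e-07) and by -0.66 ± 0.094 with TMPyP4 (edgeR adjusted p = 2.56e-05), and both calls held in 13 of 13 other fits. In the mutant line it had 44.3, 39.3 and 38.4 CPM in +GFP and 37.3, 36.3 and 33.2 CPM in +Cre libraries, which did not overlap. The difference there was -0.19 ± 0.094 (edgeR adjusted p = 0.378, not called). *Terf1* F/F cells kept 52.8, 49.4 and 49.3 CPM in +GFP and 52.7, 50.2 and 40.5 CPM in +Cre libraries, which overlapped. *Cdkn2d* had 17.9, 22.8 and 23.8 CPM in *Rtel1* F/F +GFP, 15.7, 11.5 and 16.0 in +Cre and 15.4, 13.9 and 16.0 in +TMPyP4 libraries, both treated groups lying under the controls. It fell by -0.58 ± 0.12 after *Rtel1* loss (edgeR adjusted p = 0.000660) and by -0.51 ± 0.12 with TMPyP4 (edgeR adjusted p = 0.00293), the latter lost when *Rtel1* F/F +GFP replicate 2 or 3 or +TMPyP4 replicate 2 was left out. The mutant line libraries stood at 14.9 to 19.1 CPM and the *Terf1* F/F libraries at 21.8 to 25.1 CPM, and in both the +GFP and +Cre libraries overlapped.

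*Cdkn1b* (chr6:134920401-134925525), the gene of p27Kip1, had the largest fall of any member in the treatment comparisons. The *Rtel1* F/F +GFP libraries had 64.9, 87.3 and 82.9 CPM, against 37.1, 30.1 and 32.8 CPM for +Cre and 46.3, 41.0 and 45.1 CPM for +TMPyP4. The control libraries lay above all of the treated ones, and the +Cre libraries below all of the TMPyP4 ones. The changes were -1.23 ± 0.12 (edgeR adjusted p = 1.23e-07) and -0.83 ± 0.12 (edgeR adjusted p = 2.34e-05), both held in 13 of 13 other fits. The treatments differed by -0.40 ± 0.12, which was not called (edgeR adjusted p = 0.0168). In the mutant line the level was already low with GFP, at 46.0, 40.5 and 41.2 CPM, and stood at 29.1, 38.5 and 40.1 CPM with Cre. All 3 of those +Cre libraries lay under the +GFP ones, by -0.25 ± 0.12 (edgeR adjusted p = 0.345, not called). *Terf1* F/F cells had 76.3, 73.6 and 71.0 CPM in +GFP and 73.5, 69.2 and 67.1 CPM in +Cre libraries, overlapping, a difference of -0.07 ± 0.12 (edgeR adjusted p = 0.842). The 7 groups therefore fell into a higher set (both *Terf1* F/F groups and *Rtel1* F/F +GFP, means of 69.9 to 78.4 CPM) and a lower set (33.4 to 44.1 CPM), with no overlap between the sets.

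*Ccnd1* (chr7:144929931-144939831) encodes cyclin D1, the main D-type cyclin of fibroblasts and a target of mitogen signalling. It had 240, 135 and 151 CPM in *Rtel1* F/F +GFP, 461, 413 and 468 in +Cre and 308, 277 and 305 in +TMPyP4 libraries. No groups overlapped, although replicate 1 of the controls stood above the other two. *Ccnd1* rose by 1.35 ± 0.15 after *Rtel1* loss (edgeR adjusted p = 8.12e-07) and by 0.76 ± 0.15 with TMPyP4 (edgeR adjusted p = 0.000581). *Rtel1* loss exceeded TMPyP4 by 0.59 ± 0.15 (edgeR adjusted p = 0.00672), which held in 7 of 13 other fits and was lost without +Cre replicate 1 or 3 or any 1 TMPyP4 replicate. Mutant line libraries had 365, 286 and 326 CPM in +GFP and 433, 362 and 386 CPM in +Cre libraries, higher with Cre in each same-numbered pair. The groups overlapped, with a difference of 0.27 ± 0.15 (edgeR adjusted p = 0.457) in the main test, which ignores the pairs. *Terf1* F/F libraries had 185, 183 and 169 CPM in +GFP and 265, 266 and 278 CPM in +Cre libraries. These did not overlap, and the rise of 0.59 ± 0.15 was not called in the main test (edgeR adjusted p = 0.0213) but was called by DESeq2 (adjusted p = 0.00261).

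*Ccnd2* (chr6:127125162-127152188), the gene of cyclin D2, had its lowest level in the *Rtel1* F/F controls. There were 85.3, 56.4 and 57.6 CPM in *Rtel1* F/F +GFP, 155, 144 and 132 in +Cre and 168, 146 and 143 in +TMPyP4 libraries. Both treated groups lay above the controls and overlapped each other. The rises were 1.11 ± 0.15 (edgeR adjusted p = 4.92e-06) and 1.19 ± 0.15 (edgeR adjusted p = 6.26e-06), and the difference between them was -0.08 ± 0.14 (edgeR adjusted p = 0.751). Mutant line libraries had 170, 147 and 151 CPM in +GFP and 210, 176 and 158 CPM in +Cre, with overlap and a difference of 0.22 ± 0.14 (edgeR adjusted p = 0.585). Within each same-numbered pair of that line the +Cre library was the higher. *Terf1* F/F cells had 279, 234 and 243 CPM in +GFP and 340, 280 and 363 CPM in +Cre libraries, the highest groups. Cre raised the mean there by 0.38 ± 0.14, not called (edgeR adjusted p = 0.154), though the libraries did not overlap. On the per-length scale *Ccnd1* exceeded *Ccnd2* in *Rtel1* F/F +GFP (130, 76.8 and 81.2 against 30.1, 20.8 and 20.1 TPM). In *Terf1* F/F +GFP the levels were 102, 95.7 and 92.2 TPM for *Ccnd1* and 100.4, 79.1 and 86.0 TPM for *Ccnd2*.

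*Ccne1* (chr7:38097984-38107490), the gene of cyclin E1, which drives CDK2 at the start of S phase and is itself an E2F target, was called higher in all 4 treatment comparisons. It had 10.8, 8.90 and 9.80 CPM in *Rtel1* F/F +GFP, 25.9, 27.3 and 25.3 in +Cre and 12.9, 14.0 and 12.9 in +TMPyP4 libraries. The 3 groups were separate. *Ccne1* rose by 1.41 ± 0.077 after *Rtel1* loss (edgeR adjusted p = 1.35e-10) and by 0.43 ± 0.077 with TMPyP4 (edgeR adjusted p = 0.000229), and the first exceeded the second by 0.98 ± 0.077 (edgeR adjusted p = 4.48e-08). The call for *Rtel1* loss held in 13 of 13 other fits and that for TMPyP4 in 11 of 13. In the mutant line there were 20.0, 22.5 and 20.1 CPM in +GFP and 26.1, 30.5 and 28.0 CPM in +Cre libraries, a rise of 0.44 ± 0.075 (edgeR adjusted p = 0.00299) that held in 8 of 13 other fits. It was lost when mutant +Cre replicate 2 or 3 or mutant +GFP replicate 1 or 3 was left out, and in a fit of those 6 libraries alone (edgeR adjusted p = 0.19). *Terf1* F/F libraries had 58.6, 61.1 and 58.4 CPM in +GFP and 89.9, 90.1 and 85.9 CPM in +Cre libraries, well above the others. *Terf1* loss raised it by 0.58 ± 0.074 (edgeR adjusted p = 4.29e-05), which held in 13 of 13 other fits. At baseline *Terf1* F/F cells exceeded *Rtel1* F/F cells by 2.59 ± 0.079 (edgeR adjusted p = 7.09e-15), the largest difference of any member in any comparison. In the order of group means, only the mutant +Cre and *Rtel1* F/F +Cre groups (28.2 and 26.2 CPM) overlapped as neighbours.

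**Figure D3:**
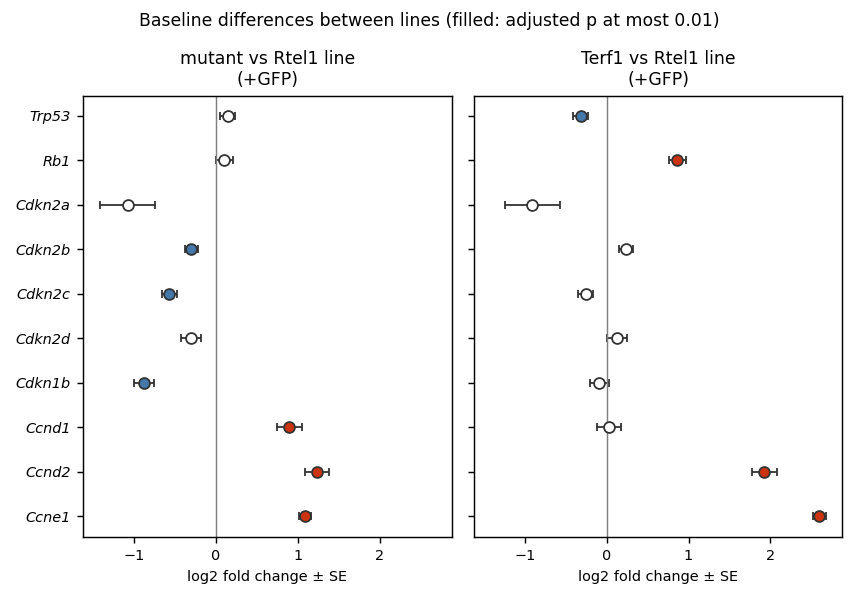
Log2 fold change ± SE of the members (vertical axis) between the untreated +GFP libraries of 2 pairs of lines, 3 libraries against 3; filled points passed an adjusted p of 0.01 (red higher, blue lower). *Ccne1* and *Ccnd2* are higher in both panels, while *Cdkn1b* lies at -0.88 in the mutant line and at -0.09, not called, in the *Terf1* F/F line.

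Whether Cre acted differently between lines was tested as an interaction. The test took all libraries as unpaired, although those of the mutant line pair by number. Between the *Rtel1* F/F and mutant lines 5 members differed in the effect of Cre (*Ccnd1*, *Ccnd2*, *Ccne1*, *Cdkn1b*, *Cdkn2c*), against 25.1% of all tested genes. Between the *Rtel1* F/F and *Terf1* F/F lines there were also 5 (*Ccnd1*, *Ccnd2*, *Ccne1*, *Cdkn1b*, *Cdkn2c*), against 30.2%, and the same *Rtel1* F/F libraries enter both tests. *Cdkn1b* fell more in *Rtel1* F/F cells, by -0.98 ± 0.17 relative to the mutant line (edgeR adjusted p = 0.000173) and by -1.16 ± 0.16 relative to *Terf1* F/F cells (edgeR adjusted p = 2.68e-05). *Ccne1* rose more, by 0.98 ± 0.11 (edgeR adjusted p = 2.82e-06) and 0.83 ± 0.11 (edgeR adjusted p = 8.81e-06). The *Trp53* differences were 0.15 ± 0.12 and -0.09 ± 0.12 (edgeR adjusted p = 0.348 and 0.579). Where the +Cre levels themselves are set side by side, *Cdkn1b* stood at 33.4 ± 3.55 CPM in *Rtel1* F/F and 35.9 ± 5.93 CPM in mutant +Cre libraries, and *Ccne1* at 26.2 ± 1.05 and 28.2 ± 2.21 CPM (SD, n = 3).

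The scale of the values moved the median of all tested genes in several comparisons, but not in every comparison with the *Rtel1* F/F +GFP libraries. On the TPM scale the median of all tested genes shifted to -0.26 for *Rtel1* loss and -0.19 for TMPyP4, from -0.03 and -0.01 with TMM-scaled counts, and the genes called split into 1503 higher and 4870 lower for *Rtel1* loss in place of 3015 and 2887. For TMPyP4 the split was 930 and 3140 in place of 2278 and 1836. Between the mutant and *Rtel1* F/F baselines the median moved from -0.03 to -0.26. It also moved between the *Terf1* F/F and mutant baselines, which do not use those controls, from 0.05 to 0.27. Between the *Terf1* F/F and *Rtel1* F/F baselines it was 0.02 with TMM-scaled counts and 0.002 on the TPM scale. The called cyclin and inhibitor genes kept their direction on that scale, with *Ccne1* at 1.17 and *Cdkn1b* at -1.46 after *Rtel1* loss. *Trp53* took the opposite sign after *Rtel1* loss, -0.17, and *Rb1* with TMPyP4 shrank to 0.16. Relative to the shifted median these 4 values were 1.42, -1.21, 0.085 and 0.34. The rise of *Ccne1* with TMPyP4, 0.43 with TMM-scaled counts, was 0.24 on the TPM scale and 0.43 relative to the shifted median.

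Among p53 pathway genes, *Cdkn1a*, the CDK inhibitor induced by p53, rose in all 4 treatment comparisons, by 1.22 ± 0.056, 0.84 ± 0.055, 0.62 ± 0.055 and 0.77 ± 0.055 for *Rtel1* loss, TMPyP4, Cre in the mutant line and *Terf1* loss (edgeR adjusted p at most 6.08e-06). Its mean ran from 51.1 CPM in *Rtel1* F/F +GFP to 431 CPM in *Terf1* F/F +Cre. *Mdm2*, the ubiquitin ligase gene that p53 induces and that limits p53 protein, rose by 1.20 ± 0.079, 0.56 ± 0.078, 0.48 ± 0.078 and 0.80 ± 0.078. Of 25 p53 targets listed, 13 were called higher and 4 lower after *Rtel1* loss (2 lower without +Cre replicate 3). These are 52% and 16% of the list, beside 22% and 21% of all tested genes, so the share called lower was under the background. The list had a median of 0.33 against -0.03 over all tested genes. TMPyP4 gave 12 and 1 (48% and 4%, beside 16.6% and 13.4%), and *Terf1* loss 9 and 1 (36% and 4%, beside 2.65% and 0.765%), with medians of 0.32 and 0.46 against -0.01 and 0.00. Cre in the mutant line gave 5 and 0 (20% and 0%, beside 0.525% and 0.569%), which became 1 without mutant +Cre replicate 3 and 0 in a fit of those libraries alone. *Eda2r*, a receptor gene induced by p53, had the largest rise with *Rtel1* loss (2.65 ± 0.13) and TMPyP4 (1.99 ± 0.13). *Perp*, a membrane protein gene of p53-dependent apoptosis, had the largest with *Terf1* loss (1.52 ± 0.14), while the death receptor gene *Fas* fell after *Rtel1* loss (-1.43 ± 0.16). At baseline 10 targets were called higher and 5 lower in the mutant line than in the *Rtel1* F/F line (40% and 20%, beside 22.6% and 22.1%). The *Terf1* F/F line had 17 higher and 2 lower than the *Rtel1* F/F line (68% and 8%, beside 30.3% and 24.5%). Its median was 0.85 against 0.02 over all tested genes. These baselines share their *Rtel1* F/F +GFP controls with *Rtel1* loss and TMPyP4. The list was written with earlier results of these data known, so its counts are not independent evidence of a direction.

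**Figure D4:**
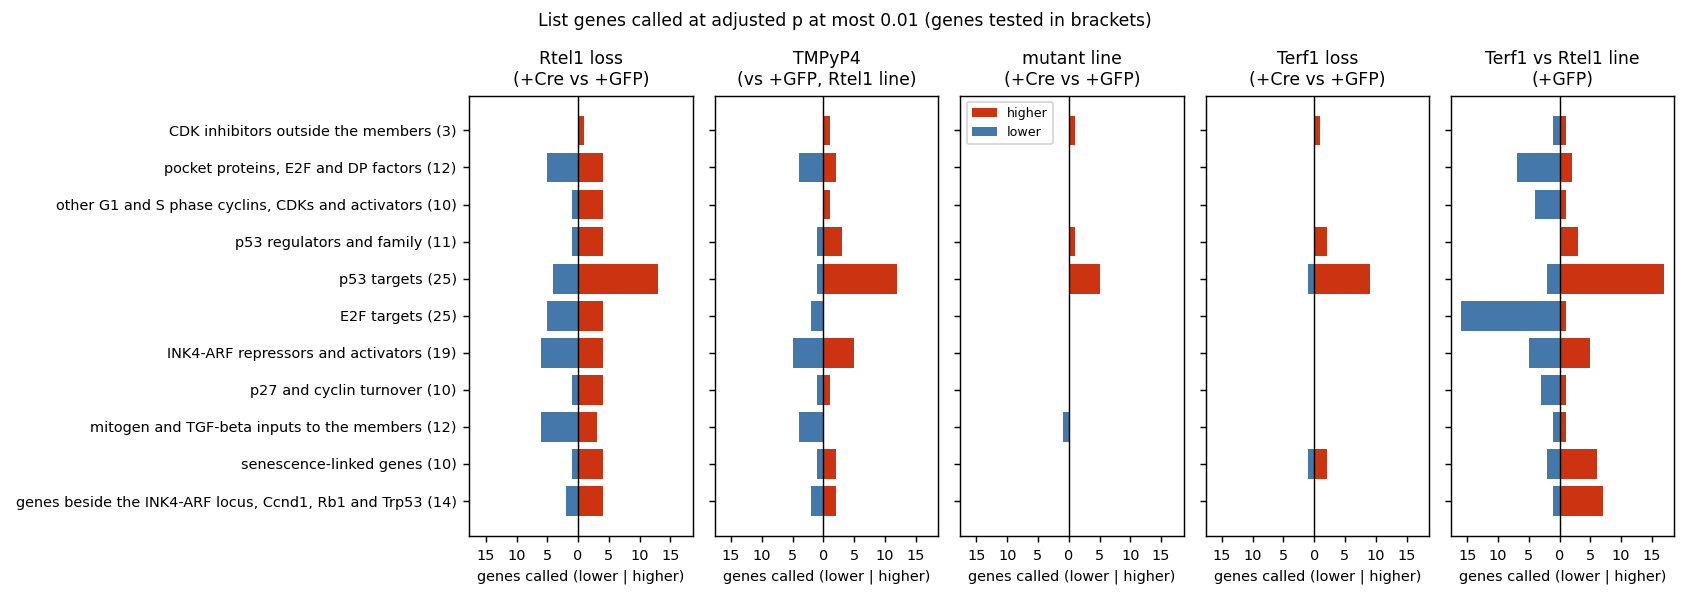
Number of genes of each list (vertical axis, genes tested in brackets) called higher (right, red) or lower (left, blue) at an adjusted p of at most 0.01 in 5 comparisons. The p53 targets have 13, 12, 5 and 9 higher in the 4 treatment comparisons, and 16 of 25 E2F targets are lower in the *Terf1* F/F line at baseline.

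With TMM-scaled counts the shares of E2F targets called in the treatment comparisons were near or under those of all tested genes. Of 25 E2F targets, 4 were called higher and 5 lower after *Rtel1* loss (16% and 20%, beside 22% and 21%; 2 lower without +GFP replicate 2). With TMPyP4 there were 0 and 2 (0% and 8%, beside 16.6% and 13.4%). Cre gave 0 in either direction in the mutant line (beside 0.525% and 0.569%) and in the *Terf1* F/F line (beside 2.65% and 0.765%). Where so few of all genes were called, a count of 0 among 25 does not set the list apart. In both lines DESeq2 also called 0, and at an unadjusted edgeR p under 0.05 there were 0 higher in both and 2 and 1 lower. For TMPyP4 4 were higher at that unadjusted p and 0 by DESeq2. On the TPM scale the called counts became 2 and 12 for *Rtel1* loss, beside 1503 and 4870 of all 13719 tested genes. For TMPyP4 they became 0 and 10, beside 930 and 3140. The shares called lower were above those of all tested genes on that scale, where the median of all genes was itself shifted down. *Rrm2*, a subunit gene of ribonucleotide reductase, rose by 1.19 ± 0.13 after *Rtel1* loss and *Ccne2*, the gene of cyclin E2, by 0.71 ± 0.13, whereas the helicase gene *Mcm2* fell by -0.46 ± 0.14. At baseline the *Terf1* F/F line had 1 higher and 16 lower than the *Rtel1* F/F line, 64% lower beside 24.5% of all tested genes and a median of -0.56 against 0.02. *Ccne1* was thus highest in the line in which most E2F targets were low. Of 12 pocket protein, E2F and DP genes, 4 rose and 5 fell after *Rtel1* loss (33.3% and 41.7%; 3 fell without +Cre replicate 1), with *E2f5* at 0.67 ± 0.11 and *E2f4* at 0.64 ± 0.090 and *Tfdp2* at -0.60 ± 0.068 and *Rbl2*, a pocket protein gene like *Rb1*, at -0.40 ± 0.059. With TMPyP4 2 rose and 4 fell, and without *Rtel1* F/F +GFP replicate 2 the counts were 0 and 0.

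Lists of genes that act on the inhibitors and on the cyclins follow, each count read against 22% higher and 21% lower of all tested genes for *Rtel1* loss and 16.6% and 13.4% for TMPyP4. Among 10 other G1 and S phase cyclin, CDK and activator genes, 4 rose and 1 fell after *Rtel1* loss (40% and 10%), with 2 rising when *Rtel1* F/F +GFP replicate 2 was left out. *Cdk4*, the kinase partner of cyclin D, fell by -0.28 ± 0.070 (edgeR adjusted p = 0.00233) there, and stood at -0.19 ± 0.070 with TMPyP4 (edgeR adjusted p = 0.0357). *Cdk6* was not called in the 4 treatment comparisons and was lower in the *Terf1* F/F line than in the *Rtel1* F/F line at baseline, by -0.84 ± 0.12. Of 19 listed repressors and activators of the INK4 locus, 4 rose and 6 fell after *Rtel1* loss (21.1% and 31.6%) and 5 rose and 5 fell with TMPyP4 (26.3% and 26.3%; 1 rose without *Rtel1* F/F +GFP replicate 2, and 2 fell without +TMPyP4 replicate 3). The Polycomb genes *Suz12* (0.61 ± 0.11) and *Cbx2* (-1.06 ± 0.12) moved in opposite directions after *Rtel1* loss. Among 10 genes of p27 and cyclin turnover, 4 rose and 1 fell after *Rtel1* loss (40% and 10%) and 1 and 1 with TMPyP4 (10% and 10%). *Skp1a*, part of the ligase that marks p27 for degradation, rose by 0.75 ± 0.10, and *Foxo1*, a factor that induces *Cdkn1b*, fell by -0.91 ± 0.074 with *Rtel1* loss and by -0.50 ± 0.073 with TMPyP4. Of 12 mitogen and TGF-beta inputs 3 rose and 6 fell after *Rtel1* loss (25% and 50%) and 0 and 4 with TMPyP4 (0% and 33.3%; 2 fell without +GFP replicate 2), among them *Fosl1* (1.58 ± 0.25) and *Myc* (0.81 ± 0.20) rising and *Fos* (-1.80 ± 0.25) falling after *Rtel1* loss. Of 14 tested genes beside the members' loci 4 rose (2 without +Cre replicate 2) and 2 fell after *Rtel1* loss, shares of 28.6% and 14.3% that are near the background. *Mtap*, next to *Cdkn2a*, rose by 0.76 ± 0.10, and *Ano1*, near *Ccnd1*, by 2.02 ± 0.13 after *Rtel1* loss.

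Over the 21 libraries the gene most like each member in log2 CPM, among 11840 genes, was sought as a description; the points share their lines and treatments. The closest were *Prrg4* for *Ccne1* (Pearson r = 0.99), *Gpsm1* for *Cdkn2a* (0.98), *Pdlim5* for *Rb1* (0.98), *Pdk2* for *Cdkn1b* (0.97) and *Zmat3* for *Ccnd2* (0.97). *Gfod1* was closest to *Ccnd1* (0.96), *Ebf4* to *Cdkn2c* (0.96), *Kif3c* to *Cdkn2b* (0.94), *Pcolce* to *Cdkn2d* (0.94) and *Otub1* to *Trp53* (0.93). Among the members themselves *Cdkn1b* was most like *Cdkn2c* (r = 0.91) and most opposed to *Ccnd1* (r = -0.90), and *Ccne1* was most like *Ccnd2* (r = 0.89).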

How the data were processed

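RNA of 21 MEF libraries in 7 groups was sequenced by the authors with a strand-specific protocol. The submitters' processing notes name cutadapt 1.9.1, STAR 2.5.2a, RSEM 1.3.0, DESeq2 1.28.0 (the methods of the study give another patch version; no output of it was used) and the mm10 build. The authors deposited RSEM expected counts per gene, of which 0 were not whole numbers, and RSEM TPM values, which are scaled by transcript length and library total. Groups came from the labels. No pair of libraries shared more than 3.83% identical counts among tested genes.

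Counts were tested in edgeR 4.0.16 (R 4.3.3) with TMM factors, filterByExpr and a robust quasi-likelihood fit of all 7 groups without covariates (14 residual degrees of freedom, two-sided, Benjamini-Hochberg over 13719 genes, called at an adjusted p of 0.01 or less). CPM and log2 values used a prior count of 2 where logged. The alternatives were DESeq2 1.42.0 as tool or as source of size factors, no filter or a minimum of 10 counts per library, a separate fit per comparison, the replicate number as a block, limma 3.58.1 on log2(TPM + 0.1), adjusted p of 0.05, a log2 fold change of at least 1, and leaving out each library. Leaving out libraries for the gene lists was added after seeing the data. The test was checked on simulated counts. Same-numbered libraries deviated together (every r above 0.1) between the mutant +GFP and +Cre groups (r = 0.86, 0.84 and 0.42), mutant and *Terf1* F/F +GFP (0.83, 0.36 and 0.26) and *Rtel1* F/F +Cre and +TMPyP4 (0.72, 0.76 and 0.41).

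The members and gene lists were chosen with earlier results of these data known. All members were named, and from each list up to 2 genes with the largest rise and 2 with the largest fall among those called with a mean of at least 1 CPM, besides *Cdkn1a*, *Mdm2*, *Cdk4*, *Cdk6*, *Rtel1*, *Terf1* and the gene most correlated with each member. *Lpar6*, *Wrap53*, *Ptprc*, *Cd68*, *Tubb3*, *Sox2* and *Thy1* were named after their values were seen. Some genes that this rule names are not reported here. Counts are per gene, so transcripts of 1 gene are not separated. Figures were drawn with matplotlib 3.10.9.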

Additional observations from a re-analysis of the deposited data

Results flagged for a closer look

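The effect of Cre differed between lines for 5 members, by the interaction test of edgeR in each case. Relative to the mutant line, the effect in *Rtel1* F/F cells was lower by -0.73 ± 0.13 for *Cdkn2c* (edgeR adjusted p = 0.000355) and -0.98 ± 0.17 for *Cdkn1b* (edgeR adjusted p = 0.000173). It was higher by 1.08 ± 0.21 for *Ccnd1* (edgeR adjusted p = 0.000643), 0.90 ± 0.20 for *Ccnd2* (edgeR adjusted p = 0.00225) and 0.98 ± 0.11 for *Ccne1* (edgeR adjusted p = 2.82e-06).

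Relative to the *Terf1* F/F line the differences were -0.84 ± 0.13 for *Cdkn2c* (edgeR adjusted p = 7.63e-05), -1.16 ± 0.16 for *Cdkn1b* (edgeR adjusted p = 2.68e-05) and 0.83 ± 0.11 for *Ccne1* (edgeR adjusted p = 8.81e-06). Those for *Ccnd1*, 0.76 ± 0.21 (edgeR adjusted p = 0.00744), and *Ccnd2*, 0.74 ± 0.20 (edgeR adjusted p = 0.00734), held in 8 and 9 of 19 other fits. Both sets of tests rest on the same *Rtel1* F/F +GFP and +Cre libraries.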

How the results depend on the processing

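Of 48 called member differences 30 were called in every fit run and 0 changed direction in any of them. With a log2 fold change of at least 1 required, the members called were 4 for *Rtel1* loss, 1 for TMPyP4, 0 for Cre in the mutant line, 0 for *Terf1* loss, 2 for each line against *Rtel1* F/F at baseline, 1 for *Terf1* F/F against the mutant line, 0 for *Rtel1* loss against TMPyP4 and 1 for each difference of Cre effects. In fits of only the libraries compared they were 0 for the mutant line, 2 for *Terf1* loss and 3 for the difference of Cre effects with the *Terf1* F/F line. These stand beside 0 of 12618, 401 of 13236 and 3920 of 13577 genes. *Terf1* loss gave 2 by DESeq2, 2 with the replicate block and 2 at an adjusted p of 0.05, and the *Terf1* F/F against *Rtel1* F/F baseline gave 7 with the block and 7 at 0.05, where *Rtel1* loss against TMPyP4 gave 5. For *Terf1* loss 639 of 13928 genes were called by DESeq2 and 757 of 13719 with the block. With the block 8541 of 13719 genes were called in that baseline. The shares of all genes at 0.05 and with the fold change required were not computed. The cause of these changes in the members called was not tested. The block changed no other count of members by over 1.5 times.

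Leaving out 1 library gave 4 to 7 members called for TMPyP4, 0 to 1 for the mutant line, 1 to 3 for *Rtel1* loss against TMPyP4 and 3 to 6 for the difference with the *Terf1* F/F line. Differences that were not called changed sign in some fits. On the TPM scale these were *Trp53* after *Rtel1* loss (-0.17), *Cdkn2b* with TMPyP4 (-0.18), *Cdkn2a* and *Cdkn2d* with *Terf1* loss (-0.0013 and -0.018), *Trp53* and *Rb1* between the mutant and *Rtel1* F/F baselines (-0.11 and -0.14) and *Trp53* in the difference with the mutant line (-0.082). *Cdkn2b* with TMPyP4 was -0.0034 with at least 10 counts, and *Cdkn2a* with *Terf1* loss was -0.00022 by DESeq2 and -0.0050 without a filter. With 1 library left out, TMPyP4 gave -0.10 to 0.018 for *Trp53* and -0.044 to 0.052 for *Cdkn2b*, and the mutant line -0.56 to 0.026 for *Cdkn2a*. Leaving out 1 library of the mutant line breaks a pair of same-numbered libraries, and *Cdkn2a* was lower with Cre in each pair. *Terf1* loss gave -0.15 to 0.20 for *Cdkn2a*, -0.16 to 0.021 for *Cdkn2c* and -0.035 to 0.066 for *Cdkn2d*. The *Terf1* F/F baseline gave -0.00029 to 0.18 for *Cdkn2d* and -0.14 to 0.31 for *Ccnd1* against *Rtel1* F/F, and -0.069 to 0.46 for *Cdkn2a* against the mutant line. *Rtel1* loss against TMPyP4 gave -0.14 to 0.082 for *Cdkn2d* and -0.14 to 0.016 for *Ccnd2*. Same-numbered libraries pair there as well, and *Ccnd2* was lower after *Rtel1* loss in each pair. The difference of Cre effects gave -0.15 to 0.047 for *Rb1* with the mutant line and -0.13 to 0.023 for *Trp53* with the *Terf1* F/F line. Of 220 list counts 173 moved by over 1.5 times under at least 1 alternative, so counts of few genes depend on the setting.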

Other observations

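Further groups of genes belong to the same pathway. Among 11 tested p53 regulators and family members, 4 rose and 1 fell after *Rtel1* loss (36.4% and 9.09%, beside 22% and 21% of all tested genes). With TMPyP4 3 rose and 1 fell (27.3% and 9.09%, beside 16.6% and 13.4%). With Cre in the mutant line 1 rose (9.09%, beside 0.525%; 0 without mutant +Cre replicate 2), and with *Terf1* loss 2 rose (18.2%, beside 2.65%). *Mdm2* is in this list and in that of the p53 targets, so the counts of the lists are not separate. *Atr*, a kinase gene of the response to stalled replication, rose by 0.48 ± 0.080 after *Rtel1* loss and by 0.60 ± 0.080 with TMPyP4, and *Atm*, a kinase gene of the response to double-strand breaks, by 0.72 ± 0.11 with *Terf1* loss. Of 3 CDK inhibitor genes outside the INK4 and *Cdkn1b* set, 1 was called in each of the 4 treatment comparisons, which was *Cdkn1a*.

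Of 10 senescence-linked genes, 4 rose and 1 fell after *Rtel1* loss (40% and 10%, beside 22% and 21%), 2 rose and 1 fell with TMPyP4 (20% and 10%, near the 16.6% and 13.4% of all tested genes), and 2 rose and 1 fell with *Terf1* loss (20% and 10%, beside 2.65% and 0.765%; 0 fell without *Terf1* F/F +Cre replicate 1). *Hmga2*, a chromatin protein gene known to repress *Cdkn2a*, rose by 1.21 ± 0.12 after *Rtel1* loss, and *Glb1*, which encodes the enzyme behind senescence-associated beta-galactosidase staining, fell by 0.63 on the log2 scale. With *Terf1* loss the chemokine gene *Ccl2* rose by 1.50 ± 0.15 and the lamin gene *Lmnb1* was lower by -0.28 ± 0.055. Of 14 genes beside the members' loci 2 rose and 2 fell with TMPyP4 (14.3% each, near the background). With Cre edgeR called 0 in the mutant line (beside 0.525% and 0.569% of all tested genes) and 0 in the *Terf1* F/F line (beside 2.65% and 0.765%). At an unadjusted p under 0.05 there were 2 higher and 0 lower in the mutant line and 3 and 2 in the *Terf1* F/F line, where DESeq2 called 1 lower.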
